A study of Mus musculus with 38 samples.

Results

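The genes described here encode nuclear subunits of complexes III, IV and V, the last part of the mitochondrial respiratory chain. They were the protein-coding genes of the count table whose mouse symbol starts with Uqcr (complex III), with Cox4 to Cox8 (complex IV) or with Atp5 (complex V, the ATP synthase). This gave 44 gene identifiers of 27554, with 43 distinct symbols because Atp5o occurred under 2 identifiers, and 8, 18 and 18 of them belonged to complexes III, IV and V.

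Complex III passes electrons from ubiquinol to cytochrome c, complex IV passes them on to oxygen, and both pump protons across the inner mitochondrial membrane. Complex V lets the protons flow back and makes ATP from the gradient. Most subunits are made from nuclear genes and a few from the mitochondrial genome. Complex IV has subunits with a muscle and heart isoform and an isoform used in most tissues, namely Cox6a2 beside Cox6a1, Cox7a1 beside Cox7a2, and Cox8b beside Cox8a.

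RNA was measured by 3′ mRNA sequencing of whole gastrocnemius muscle of male C57BL/6JRj mice, either young (12 to 13 weeks) or aged (23 to 25 months). Cardiotoxin, a venom toxin that kills muscle fibers (20 µM, 50 µL), had been injected into the gastrocnemius of 1 leg, and both legs were sampled at day 5, with the contralateral leg as uninjured muscle. Mice received nicotinamide (200 mg/kg) with pyridoxine (4 mg/kg), called NAM/PN, or vehicle (1% carboxymethyl cellulose) by daily gavage. The 38 libraries fell into 8 groups. Young mice gave 6 contralateral and 5 injured libraries with vehicle, and 5 and 3 with NAM/PN. Aged mice gave 6 and 3 with vehicle, and 6 and 4 with NAM/PN. They came from 23 mice, of which 15 had both legs in the table. The labels call the treatment NAM+B6 in the titles. The sample descriptions give the agent 1 code in the young and another in the aged animals. They also come in 2 styles, with the leg code either joined to the muscle code or separate from it. All young NAM/PN libraries had the joined style, all aged libraries the separate style, and young vehicle libraries both. Comparisons of age, of NAM/PN in young mice, and of the NAM/PN effect between ages were therefore partly aligned with this description style. The last of these was also aligned with the agent code. What the style and the codes stand for was not tested.

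Total counts were 4032414 to 7507191 per library. The label of muscle was checked on 24 mature fiber markers, whose summed level was 228100 to 339100 CPM (counts relative to the total of the library) in uninjured muscle. After injury 20 to 22 of 24 of them fell, while 10 to 12 of 12 macrophage, 7 to 9 of 10 fibroblast and 10 or 11 of 11 myoblast and regenerating fiber markers rose in the 4 injury comparisons. In whole tissue, fewer fibers and less RNA per fiber cannot be told apart. Some libraries stood apart. Summed liver markers reached 431 and 996 CPM in young vehicle contralateral replicates 1 and 3 and 268 CPM in young NAM/PN injured replicate 1, against at most 19.8 CPM in each of the other libraries. Summed macrophage markers were 580 and 1513 CPM in aged vehicle contralateral replicates 3 and 6, where the group's other 4 libraries lay at 93.0 to 154 CPM. Summed slow fiber markers varied widely in uninjured muscle. They were 355.8 to 6203 CPM in young vehicle, 67.47 to 4792 CPM in young NAM/PN, 446.6 to 8214 CPM in aged vehicle and 1050 to 8936 CPM in aged NAM/PN mice. The part of these libraries and markers in the results below was not tested beyond leaving out each library in turn.

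Of the 44 identifiers, 41 had enough counts to be tested (8, 16 and 17 for complexes III, IV and V). Cox8c and the second Atp5o identifier had no count in any library, and Cox7b2 had 1 count in 1 library. Cox7b2 and Cox8c are testis isoforms. Levels are CPM scaled by TMM, a factor that makes the typical gene equal between libraries, and fold changes come from 1 edgeR quasi-likelihood fit of all libraries with p-values adjusted over 12610 genes (Benjamini-Hochberg, threshold 0.05). Because 3′ sequencing gives about 1 tag per transcript, levels depend little on transcript length.

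The 250 bases before the transcription start are shown for the 5 isoform genes with an entry (RefSeq, GRCm38.p6), since the results turn on these pairs. Capitals mark matches to the letters GCGCNTGCG for NRF1, CAGCTG for an E-box, the site of myogenic factors, and CCGGAAGT for GABP, on either strand.
Cox6a1, chr5:115348959-115349208, minus strand: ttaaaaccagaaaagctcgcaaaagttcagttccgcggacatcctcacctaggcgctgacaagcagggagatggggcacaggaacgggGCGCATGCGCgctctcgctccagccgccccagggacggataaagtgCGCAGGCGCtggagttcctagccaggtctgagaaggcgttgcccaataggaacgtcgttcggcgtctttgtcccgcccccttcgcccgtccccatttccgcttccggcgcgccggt
Cox7a1, chr7:30183921-30184170, plus strand: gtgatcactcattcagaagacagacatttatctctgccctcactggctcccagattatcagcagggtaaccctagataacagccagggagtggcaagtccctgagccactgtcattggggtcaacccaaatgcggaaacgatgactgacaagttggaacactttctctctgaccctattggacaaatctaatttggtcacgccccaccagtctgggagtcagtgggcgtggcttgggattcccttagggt
Cox7a2, chr9:79759854-79760103, minus strand: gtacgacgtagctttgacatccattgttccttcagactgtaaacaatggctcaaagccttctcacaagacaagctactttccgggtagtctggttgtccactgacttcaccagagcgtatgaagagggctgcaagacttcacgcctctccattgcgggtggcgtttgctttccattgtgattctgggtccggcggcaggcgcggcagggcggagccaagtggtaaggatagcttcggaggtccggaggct
Cox8a, chr19:7217617-7217866, minus strand: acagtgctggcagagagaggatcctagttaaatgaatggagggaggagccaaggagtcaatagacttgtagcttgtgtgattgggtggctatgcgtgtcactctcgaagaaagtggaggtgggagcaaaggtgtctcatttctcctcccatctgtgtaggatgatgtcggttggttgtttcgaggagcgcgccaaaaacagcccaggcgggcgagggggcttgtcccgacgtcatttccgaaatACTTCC
Cox8b, chr7:140900447-140900696, minus strand: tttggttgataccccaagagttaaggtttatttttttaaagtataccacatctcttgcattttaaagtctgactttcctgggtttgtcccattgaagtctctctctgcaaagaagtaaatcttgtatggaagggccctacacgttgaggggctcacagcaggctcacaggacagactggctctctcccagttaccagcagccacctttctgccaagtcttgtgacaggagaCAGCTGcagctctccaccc
Cox6a1 held 3 NRF1 matches, 2 of them overlapping, Cox8b 1 E-box, and Cox8a a GABP match that runs across the start, so that only its first bases are printed. Cox7a1 and Cox7a2 held 0 matches to any of the letters searched. Promoter sequences of 300 bases, from 250 before to 50 after the start, matched 31 of the 44 identifiers. The NRF1 letters were in 12 of them (38.7%), against 7.12% of the 27025 genes in the RefSeq table. The GABP letters were in 4 (12.9%, all genes 4.31%), those of YY1 (AAGATGGC) in 2 (6.45%, all genes 3.19%), those of ERR (TNAAGGTCA) in 1 (3.23%, all genes 1.43%), the E-box in 2 (6.45%, all genes 18.3%), TATAAA in 3 (9.68%, all genes 15.7%) and the MEF2 letters CTAAAAATA in 0 (all genes 0.588%). These are matches of letters and not measured binding.

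To ask how injury changed the 3 complexes, injured and contralateral muscle were compared in each age and treatment. On the TMM scale 18 to 33 of the 41 subunit genes fell and 2 or 3 rose. In young vehicle mice 32 of 41 fell and 2 rose, against 26.2% and 29.3% of all genes. In young NAM/PN mice 18 fell and 2 rose (all genes 18.1% and 22.4%, and with the mouse as a block, 9 and 1), in aged vehicle mice 18 fell and 2 rose (17.5% and 20.8%), and in aged NAM/PN mice 33 fell and 3 rose (26.1% and 29.2%). The median log2 fold change of the members was -1.11, -0.62, -0.64 and -1.06, beside 0.05, 0.04, -0.01 and 0.03 for all genes tested. The count of 18 lower in aged vehicle mice was 8 without injured replicate 2, 10 without injured replicate 3 and 7 in a fit of only the groups compared, and that in young NAM/PN mice was 10, with 1 higher, without injured replicate 1. In either direction 34, 20, 20 and 36 of 41 were called, against 55.5%, 40.5%, 38.4% and 55.3% of all genes.

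**Figure D1:**
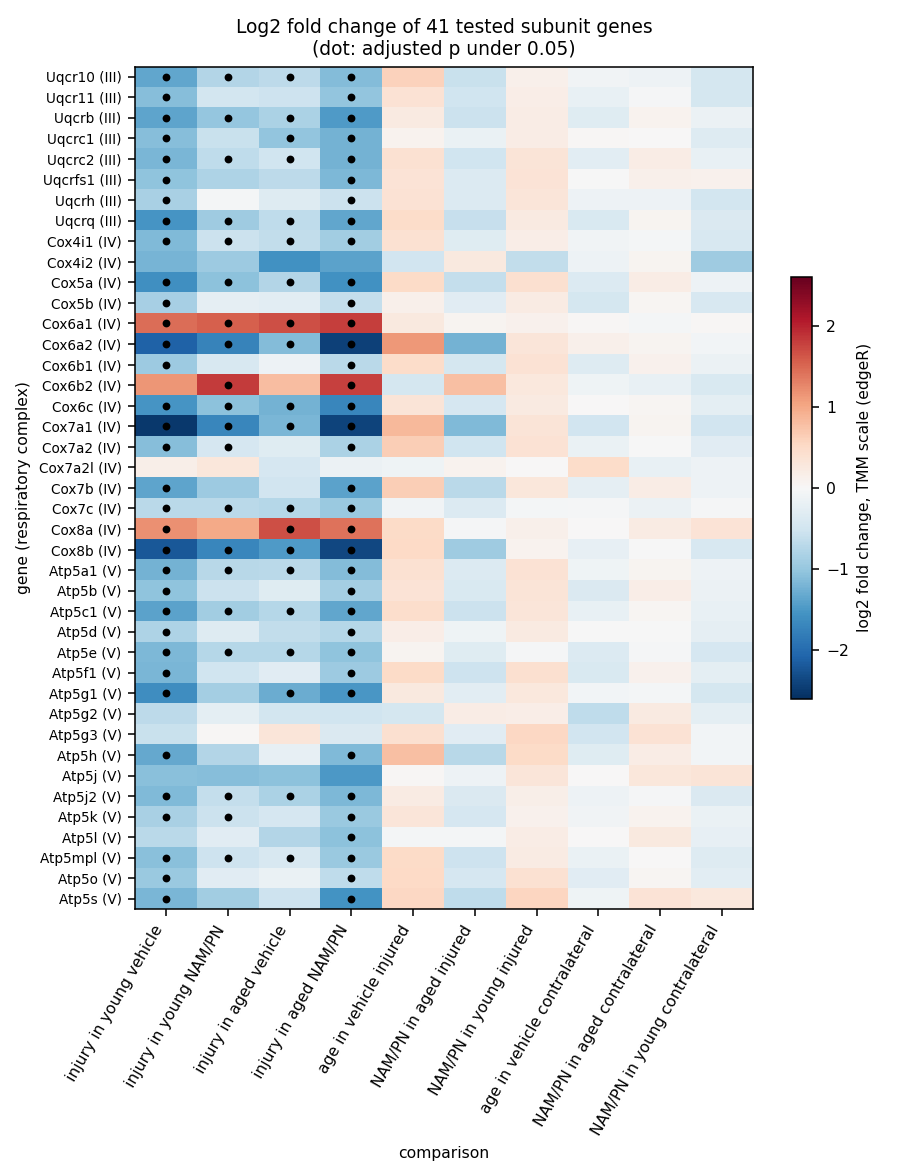
Log2 fold change (color, TMM scale) of the 41 tested genes, in rows by complex, in 10 comparisons, in columns. A dot marks an adjusted p under 0.05. Dots mark 34, 20, 20 and 36 of the 41 rows in the 4 injury columns, and no dot stands in the age and NAM/PN columns.

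The direction depended on what the libraries were scaled to. With scaling to total counts, chosen after seeing the data, the median of all genes moved up by 0.94, 0.79, 0.70 and 1.05 in the 4 injury comparisons in that order. The share of higher among all genes called went from 52.8%, 55.4%, 54.3% and 52.8% to 91.2%, 92.6%, 94.6% and 91.3%. Members then rose and fell as 4 and 8, 8 and 3, 5 and 2, and 7 and 5 of 41, against 66.0% and 6.34%, 54.6% and 4.34%, 49.3% and 2.83%, and 67% and 6.38% of all genes, with medians of -0.17, 0.16, 0.10 and -0.01. Relative to the median of all genes the members' median lay at -1.16, -0.66, -0.63 and -1.09 with TMM and at -1.16, -0.67, -0.59 and -1.09 with total counts. The members therefore fell relative to the typical gene, while their share of all counts was 1.40% ± 0.14 (SD, n = 6) and 1.14% ± 0.12 (n = 5) in contralateral and injured muscle of young vehicle mice, and 1.31% ± 0.12 (n = 6) and 1.38% ± 0.13 (n = 3) in aged vehicle mice.

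**Figure D2:**
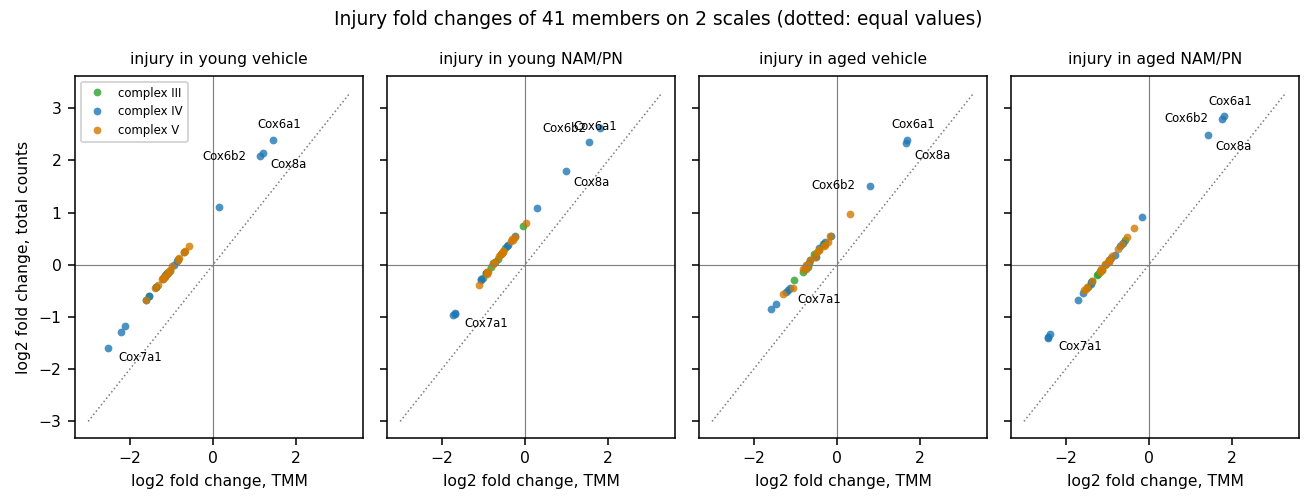
Log2 fold change after injury of the 41 genes (points, colored by complex) with TMM scaling on the x axis and total-count scaling on the y axis, 1 panel per age and treatment. All points lie above the dotted line of equal values, and Cox6a1 is above 0 and Cox7a1 below 0 on both axes in all 4 panels.

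All 8 tested subunits of complex III fell with TMM scaling in young vehicle and in aged NAM/PN mice, and 4 and 5 fell in young NAM/PN and aged vehicle mice. The core proteins Uqcrc1 and Uqcrc2 changed by -1.11 (SE 0.29) and -1.19 (SE 0.15) on the log2 scale in young vehicle mice. The other 6 were Uqcrfs1, the Rieske iron-sulfur protein, Uqcrh, the hinge protein, Uqcrb and Uqcrq, which lie near the ubiquinone site, and the small subunits Uqcr10 and Uqcr11. Their log2 fold changes there ran from -1.53 (Uqcrq) to -0.84 (Uqcrh). Summed complex III levels were 3159 to 4111 CPM (median 3589) in the contralateral and 1648, 1712, 1299, 1849 and 1531 CPM in the injured muscle of young vehicle mice, with no overlap. Summed as shares of total counts they were 2541 to 3073 CPM and 2045 to 2615 CPM, which overlapped.

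Complex V followed the same order with 13, 6, 6 and 14 of 17 subunits lower and 0 higher. Its catalytic head is made by Atp5a1 and Atp5b, its central stalk by Atp5c1, Atp5d and Atp5e, and its peripheral stalk by Atp5f1, Atp5h, Atp5j and Atp5o. Atp5j2, Atp5k, Atp5l and Atp5mpl are membrane subunits, and Atp5s is a small associated factor. Atp5a1 fell in all 4 comparisons, with log2 fold changes of -1.22 (SE 0.16), -0.71 (SE 0.19), -0.70 (SE 0.19) and -1.13 (SE 0.17). With total-count scaling it changed by -0.28 to 0.05 and was not called in any. Atp5o, called lower in young vehicle and aged NAM/PN mice with TMM (-0.97 and -0.65), was called higher in 3 comparisons with total counts (0.50, 0.54 and 0.39, all but young vehicle).

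The membrane ring of complex V is made by 3 genes, Atp5g1, Atp5g2 and Atp5g3, that encode the same mature protein. Atp5g3 was the most abundant, at 689 to 1229 CPM (median 971) in young vehicle contralateral muscle, Atp5g1 lay at 110 to 151 CPM (median 147) and Atp5g2 at 2.68 to 8.14 CPM (median 4.65). Only Atp5g1 was called after injury, with log2 fold changes of -1.62 (SE 0.32), -0.89 (SE 0.39, adjusted p = 0.0642 by edgeR), -1.29 (SE 0.39) and -1.51 (SE 0.35), in the same order of the 4 comparisons. With total-count scaling these were -0.68, -0.13, -0.56 and -0.47, of which that in young vehicle mice was called. Its call in aged vehicle mice was lost without injured replicate 2 (adjusted p = 0.0564 by edgeR) or 3 (0.0623). Atp5g3 changed by -0.58, 0.03, 0.32 and -0.37 and Atp5g2 by -0.68, -0.24, -0.47 and -0.52, none called. Of the 50-base windows in the last 300 bases of Atp5g2 transcripts, 55.5% occurred in another gene, so its counts are uncertain. The share was 36% for Atp5g1, 40.6% for Uqcrb, 40.9% for Atp5o, 50% for Uqcrc2, 59.2% for Atp5h and 70.1% for Atp5l. The counts of these genes carry the same limit.

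Complex IV held the genes that moved in opposite directions. Its subunits fell in 11, 8, 7 and 11 of 16 cases and rose in 2, 2, 2 and 3. Among the subunits without a muscle isoform, Cox5a fell in all 4 comparisons (-1.60, -1.06, -0.76 and -1.58), as did Cox6c (-1.54, -1.06, -1.23 and -1.70), Cox4i1 (-1.14, -0.56, -0.64 and -0.91) and Cox7c (-0.69, -0.71, -0.74 and -0.96). Of these only Cox6c and Cox5a were also called lower in some comparisons with total counts, in 3 and 2. Cox5b, Cox6b1 and Cox7b were called lower in young vehicle and aged NAM/PN mice only. Cox7a2l, a factor of respiratory supercomplexes, and Cox4i2, the isoform of lung and hypoxic cells, were not called in any with TMM. With total counts Cox7a2l was called higher in all but aged vehicle mice (1.10, 1.09 and 0.91) and Cox5b in young and aged NAM/PN mice (0.54 and 0.42). Sequence shared with other genes makes Cox5a and Cox7c uncertain, at 69.3% and 65.2% of windows. For Cox6c the share was 34.9%, all with Cox6c2, so its counts carry this limit too.

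Cox6a1 (chr5:115345642-115348981, minus strand), the ubiquitous 6a isoform, rose in every comparison. In young vehicle mice it was 36.8 to 76.7 CPM (median 69.7) in contralateral and 194.5, 128, 200.0, 183 and 176 CPM in injured muscle. In young NAM/PN mice it was 55.8, 55.5, 59.9, 73.7 and 83.1 CPM against 226, 190.2 and 159 CPM. In aged mice it was 46.1 to 91.1 CPM (median 61.8) against 177, 228 and 229 CPM with vehicle and 44.0 to 77.3 CPM (median 65.7) against 239, 225, 210 and 213 CPM with NAM/PN. All injured libraries lay above all contralateral ones in each group. The log2 fold changes were 1.45 (SE 0.18), 1.55 (SE 0.21), 1.68 (SE 0.20) and 1.8 (SE 0.19) with TMM and 2.40, 2.35, 2.39 and 2.85 with total counts, all called.

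Its muscle partner Cox6a2 (chr7:128205435-128206387, minus strand) was the most counted member, and it fell. In young vehicle mice it was 1843 to 3646 CPM (median 2638) against 514, 822, 399, 594 and 782 CPM. In young NAM/PN mice it was 2999, 2417, 1952, 2850 and 2613 CPM against 521, 674 and 1129 CPM. In aged mice it was 2759 to 3199 CPM (median 2955) against 1902, 837 and 1319 CPM with vehicle and 2001 to 4165 CPM (median 3114) against 357, 766, 535 and 661 CPM with NAM/PN. No injured library reached a contralateral one of its group. The log2 fold changes were -2.11 (SE 0.24), -1.73 (SE 0.29), -1.12 (SE 0.28) and -2.42 (SE 0.27), all called. With total counts they were -1.18, -0.97, -0.44 and -1.40, and the one in aged vehicle mice was not called (adjusted p = 0.123 by edgeR). Of the windows at its 3′ end, 8.37% also occurred in the overlapping gene Itgad.

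**Figure D3:**
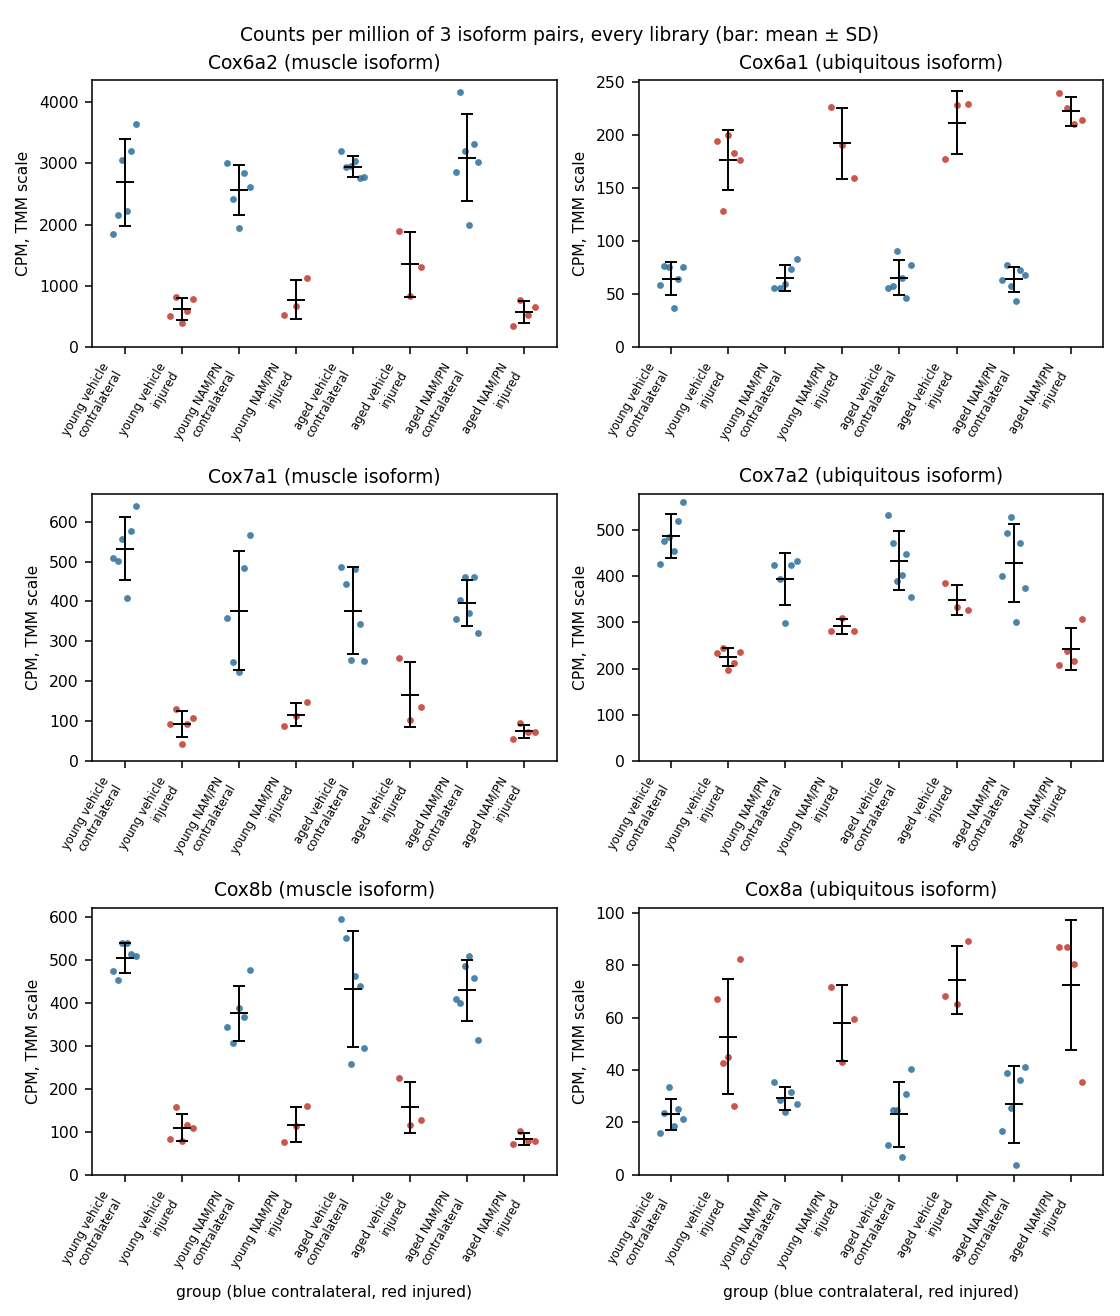
Level (CPM, TMM scale, axes from 0) of the 3 muscle isoforms and their 3 ubiquitous partners in the 8 groups, a point per library (blue contralateral, red injured) with bars for mean ± SD. Cox6a1 lies at 36.8 to 91.1 CPM in all contralateral libraries and at 128 to 239 CPM in all injured ones, while Cox6a2, Cox7a1 and Cox8b go the other way.

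Cox8b (chr7:140898945-140900446, minus strand), the muscle 8 isoform, was the only muscle isoform called lower in all 4 comparisons on both scales. In young vehicle mice it was 451 to 539 CPM (median 511) against 84.2, 157, 79.2, 115 and 109 CPM, and in aged vehicle mice 257 to 594.5 CPM (median 450.4) against 225.5, 116 and 128 CPM. In aged NAM/PN mice it was 313 to 509 CPM (median 433) against 71.5, 102, 78.8 and 79.4 CPM. In all 4 comparisons the groups did not overlap. Its log2 fold changes were -2.21 (SE 0.22), -1.69 (SE 0.27), -1.47 (SE 0.26) and -2.37 (SE 0.24) with TMM and -1.28, -0.94, -0.76 and -1.33 with total counts.

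Cox8a (chr19:7215153-7217616, minus strand), the ubiquitous partner, was low and rose. In young vehicle mice it was 16.0 to 33.4 CPM (median 22.5) against 67.02, 42.6, 45.0, 26.4 and 82.4 CPM, which overlapped, and in aged vehicle mice 6.62 to 40.4 CPM (median 24.7) against 68.5, 65.2 and 89.2 CPM, which did not. In aged NAM/PN mice it was 3.695 to 41.03 CPM (median 30.8) against 86.9, 87.0, 80.7 and 35.5 CPM, overlapping through the lowest injured library. The log2 fold changes were 1.20 (SE 0.37), 0.99 (SE 0.43), 1.67 (SE 0.41) and 1.42 (SE 0.38). Only that in young NAM/PN mice missed the threshold (adjusted p = 0.0636 by edgeR), while with total counts all 4 were called.

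Cox7a1 (chr7:30184144-30186078, plus strand), the muscle 7a isoform, was called lower in each, with log2 fold changes of -2.52 (SE 0.27), -1.69 (SE 0.33), -1.19 (SE 0.31) and -2.41 (SE 0.30). In young vehicle mice it was 409 to 640 CPM (median 534) against 92.2, 130, 42.0, 92.3 and 109 CPM. In aged vehicle mice 1 of the 3 injured libraries, at 258 CPM, lay above the 2 lowest contralateral ones, at 252 and 253 CPM. With total counts its changes were -1.59, -0.92, -0.48 and -1.38, and the third was not called (adjusted p = 0.137 by edgeR).

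Cox7a2 (chr9:79755361-79759878, minus strand), its ubiquitous partner, did not go the opposite way on the TMM scale. Its log2 fold changes were -1.11 (SE 0.14), -0.44 (SE 0.17), -0.31 (SE 0.16, not called) and -0.82 (SE 0.15). With total counts they were -0.17, 0.36, 0.40 and 0.20, called higher in young NAM/PN and aged vehicle mice, so the direction flipped with the scaling in 3 of the 4, and in young NAM/PN mice it was called lower on one scale and higher on the other. Its call in young NAM/PN mice with TMM (adjusted p = 0.0382 by edgeR) was lost without any 1 of the 3 injured libraries or without contralateral replicate 1, 2, 4 or 5 (adjusted p = 0.0535 to 0.119). Cox6b2, a testis isoform with 0 to 27 counts per library that was called higher in all 4 with total counts, rose with TMM in young NAM/PN (1.81, SE 0.63) and aged NAM/PN mice (1.77, SE 0.57). Its young NAM/PN call was lost without injured replicate 1 (1.38, adjusted p = 0.149 by edgeR) or contralateral replicate 2 (1.52, adjusted p = 0.0513), and the aged one without injured replicate 1 (1.45, adjusted p = 0.0504).

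A ratio of isoforms within a library does not depend on scaling. Cox6a2 made up 97.6% ± 0.70 (SD, n = 6) of the Cox6a2 and Cox6a1 counts in contralateral and 76.75% ± 7.73 (n = 5) in injured muscle of young vehicle mice. The shares were 97.5% and 78.45% in young NAM/PN, 97.8% and 85.1% in aged vehicle, and 98.0% and 71.1% in aged NAM/PN mice. Cox8b made up 95.6% ± 1.0 (n = 6) and 67.3% ± 12.04 (n = 5) of its pair in young vehicle mice, and 92.6% and 65.7%, 94.2% and 66.6%, and 93.8% and 54.4% in the other 3. Cox7a1 made up 52.1% ± 2.6 (n = 6) and 28.5% ± 6.5 (n = 5), then 47.5% and 28.4%, 45.9% and 31.1%, and 48.2% and 23.6%.

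In 15 of 15 mice with both legs the muscle isoform's share was lower in the injured leg, for each of the 3 pairs. The log2 ratio of Cox6a2 to Cox6a1 changed by -3.59 (SE 0.34) and -3.34 (SE 0.49) in young mice with vehicle and NAM/PN, and by -2.91 (SE 0.47) and -4.26 (SE 0.27) in aged mice. That of Cox8b to Cox8a changed by -3.37 (SE 0.40), -2.70 (SE 0.47), -3.36 (SE 0.64) and -4.04 (SE 0.68), and that of Cox7a1 to Cox7a2 by -1.48 (SE 0.24), -1.20 (SE 0.29), -0.93 (SE 0.35) and -1.61 (SE 0.19). The groups did not overlap in 11 of the 12 tests, the exception being Cox7a1 in aged vehicle mice.

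In two-sided exact permutation tests over libraries, adjusted over 30 tests, 6 of the 12 passed 0.05, those in young vehicle (adjusted p = 0.0433) and aged NAM/PN mice (adjusted p = 0.0476). The others had adjusted p = 0.0893 in young NAM/PN and 0.0794 to 0.102 in aged vehicle mice, where 3 injured libraries limit the exact test to p = 0.0357 and 0.0238 before adjustment. With the other usual two-sided definition, which counts absolute differences, 11 of the 12 passed. That definition had been computed first and was replaced after its results were seen. Blocked by mouse, the mean changes within mice were -3.60 and -4.23 for Cox6a2, -3.47 and -4.44 for Cox8b and -1.47 and -1.64 for Cox7a1 in young vehicle and aged NAM/PN mice. With 5 and 4 mice the exact sign-flip test cannot go below p = 0.0625 and 0.125, so none of these passed.

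**Figure D4:**
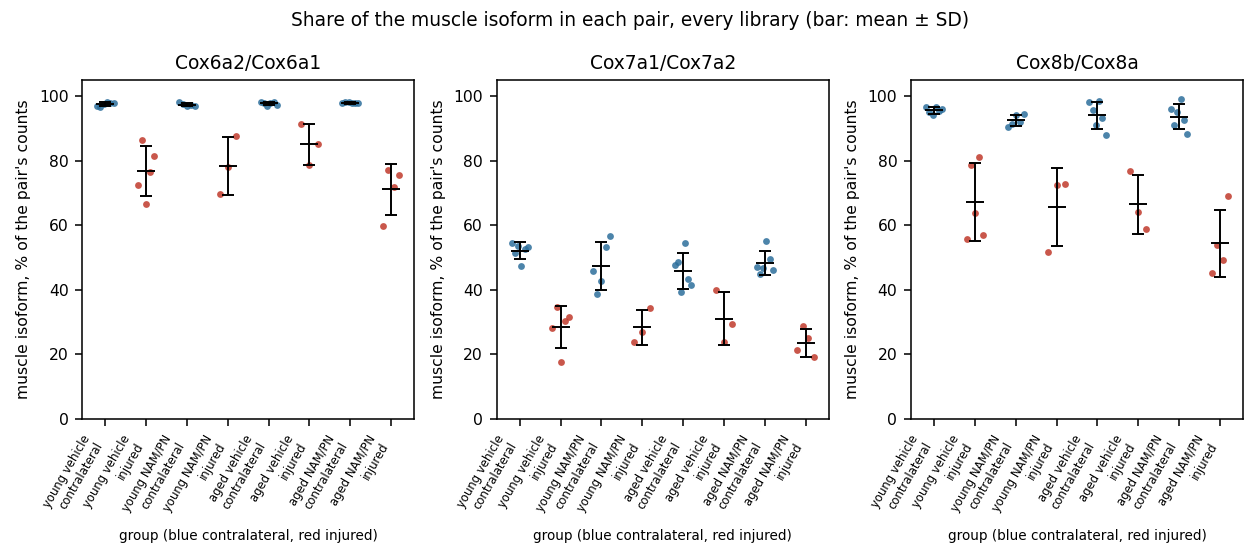
Muscle isoform as percent of the counts of its pair in the 8 groups, a point per library with bars for mean ± SD, for the 3 pairs. All contralateral values of the Cox6a pair lie at 96.6% to 98.4% and the injured ones at 59.8% to 91.5%, and those of the Cox7a pair lie at 38.7% to 56.8% and 17.6% to 40.1%.

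Other proteins of the same pathway were described from lists. Cyc1, the cytochrome c1 subunit of complex III, changed by -1.13 (SE 0.22), -0.39 (SE 0.26, not called), -0.73 (SE 0.26) and -0.95 (SE 0.24). Ndufa4, a subunit of complex IV despite its name, changed by -1.47, -1.29, -0.55 and -1.43, called in young vehicle and aged NAM/PN mice. With total counts neither Cyc1 nor Ndufa4 was called in any comparison after injury. Of the mitochondrially encoded subunits, of which mt-Co2, mt-Co3 and mt-Atp8 had too few counts and mt-Atp6 at most 11 per library, mt-Co1 of complex IV changed by -2.43, -1.96, -1.46 and -2.69 and mt-Cytb of complex III by -2.14, -1.66, -1.04 and -2.26, all called with TMM. With total counts 3, 1, 1 and 2 of the 3 tested mitochondrially encoded subunits were lower. There mt-Co1 and mt-Cytb were not both called in young NAM/PN or in aged vehicle mice. Assembly factors of complex III fell in 6, 4, 4 and 6 of 6 cases, led by Uqcc1 (-1.51 in young vehicle mice) and Ttc19 (-1.21). With total counts only 1, 1, 0 and 2 of these 6 were called lower. Complex IV assembly factors fell in 11, 7, 8 and 12 of 22, led by Higd2a (-1.10) and Cox14 (-0.95), and 1 rose in young NAM/PN mice. With total counts the calls of that list turned over, to 5, 6, 4 and 10 higher and 1, 0, 0 and 1 lower. Of 5 complex V assembly and inhibitor genes 2 fell in each comparison, with Atpaf1 at -1.81 and Fmc1 at -1.92 in young vehicle mice, and Atpif1, the inhibitor of complex V, rose by 1.31, 1.40, 1.49 and 1.44. With total counts 2, 1, 0 and 2 of the 5 were lower and 1, 1, 1 and 2 higher.

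The ADP/ATP carriers showed a similar muscle and ubiquitous pair. Slc25a4, the muscle carrier, changed by -2.05 (SE 0.25), -1.46 (SE 0.30), -0.999 (SE 0.29) and -2.12 (SE 0.28), all called, and Slc25a5 by 0.50, 0.53 (not called), 0.81 and 0.51. Cycs, cytochrome c, changed by -1.92, -1.42, -0.91 and -2.06, all called. These calls are with TMM. With total counts 3, 2, 0 and 3 of 8 electron carrier and adenine nucleotide exchange genes were lower. Neither Slc25a4 nor Cycs was therefore called lower in aged vehicle mice on that scale. Of 16 matrix and outer membrane proteins 12, 7, 8 and 12 fell, led in young vehicle mice by Vdac1 (-1.81) and Mdh2 (-1.45). Of 12 transcription regulators 6, 1, 3 and 5 fell, led by Ppargc1a (-1.81) and Mef2d (-0.72), and 0, 1, 1 and 1 rose, whereas with total counts 6 rose in each and 1, 0, 0 and 0 fell. Mature fiber markers, such as Pfkm (-2.08 in young vehicle mice) and Tnni2 (-2.17), had medians of -1.92, -1.60, -1.30 and -2.20 with TMM and -0.99, -0.84, -0.57 and -1.21 with total counts. Macrophage markers had medians of 3.91, 2.90, 2.12 and 3.55, with Mrc1 at 2.98 and C1qa at 4.22 in young vehicle mice. With total counts 12 to 17 of the 24 fiber markers still fell and all 12 macrophage markers rose, while the medians of the matrix and outer membrane list were -0.12, -0.04, 0.05 and -0.015. Fibroblast markers were led by Col3a1 (3.51 in young vehicle mice) and Fn1 (3.22) and regenerating fiber markers by Myog (4.74) and Pax7 (3.00). Endothelial markers fell in 4, 3, 0 and 2 of 8 cases with TMM, but with total counts 5, 3, 3 and 6 rose and 0 fell. With TMM erythrocyte markers fell in 5, 5, 0 and 5 of 5, adipocyte markers in 1, 1, 1 and 4 of 7 and slow fiber genes in 1, 0, 0 and 4 of 10, with 2 of these higher in each. Their part in the changes of the members was not tested.

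Aging was examined by comparing aged and young vehicle mice. This comparison in injured muscle and that of NAM/PN in aged injured muscle share the 3 aged vehicle injured libraries. In injured muscle 35 of 41 members had positive log2 fold changes, with a median of 0.38 against 0.0019 for all genes, but edgeR called 0 of 41 and 0% of all genes. At an unadjusted p under 0.05 there were 11 members and 6.31% of all genes. With total counts 30 were positive, with a median of 0.19 beside -0.18 for all genes. The smallest p-values belonged to Cox6a2 (1.12, SE 0.27, adjusted p = 0.245), Cox7a2 (0.63, SE 0.16, adjusted p = 0.273) and Uqcr10 (0.59, SE 0.19, adjusted p = 0.468), by edgeR. DESeq2 called Cox6a2 and Cox7a2, 2 of 41 beside 0.127% of all genes, and voom with quality weights called these and Uqcr10, beside 1.02%. Summed fibroblast markers were 28700, 11750, 15240, 10230 and 19600 CPM in young and 6068, 6693 and 5772 CPM in aged injured muscle (as shares of total counts), with no overlap and 0 of 10 called. Mature fiber markers had a median log2 fold change of 0.55 with 0 of 24 called, and their summed levels overlapped. The part of these cells in the members' values was not tested. In contralateral muscle edgeR called 0 of 41 beside 1.10% of all genes, with 6 members and 12.7% of all genes at an unadjusted p under 0.05. The smallest p-values there were those of Cox5b (-0.45, SE 0.17), Uqcrq (-0.39, SE 0.18) and Atp5o (-0.30, SE 0.14), with adjusted p = 0.236, 0.340 and 0.347.

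To ask whether NAM/PN changed the subunits, treated and vehicle mice were compared in the same leg and age. In aged injured muscle 36 of 41 members had negative log2 fold changes with a median of -0.40, against 0.0023 for all genes. edgeR called 0 of 41 and 0% of all genes, and 13 members had an unadjusted p under 0.05 beside 7.38% of all genes. With total counts 29 were negative, with a median of -0.10 beside 0.28 for all genes. Cox6a2 was at -1.22 (SE 0.29, adjusted p = 0.0871 by edgeR), with 1902, 837 and 1319 CPM in vehicle and 357, 766, 535 and 661 CPM in NAM/PN mice. Cox7a1 was at -1.16 (SE 0.32, adjusted p = 0.147), with 258, 103.5 and 136 CPM against 55.8, 96.3, 73.1 and 72.3 CPM. Cox8b was at -0.92 (SE 0.26, adjusted p = 0.177), with 225.5, 116 and 128 CPM against 71.5, 102, 78.8 and 79.4 CPM. The groups did not overlap for any of these, but the share of all genes that separate in this way was not computed. The ubiquitous Cox6a1 and Cox8a were at 0.07 (SE 0.22) and -0.03 (SE 0.45). The third ubiquitous partner, Cox7a2, was negative as well, at -0.66 to -0.45 when each library was left out in turn.

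Alternative tests called some of these genes. DESeq2 called Cox6a2, Cox7a1, Cox8b and Cox7a2, beside 0.999% of all genes. Voom with quality weights called 10 members, beside 5.93%. With edgeR Cox6a2 was the only member called without aged vehicle injured replicate 2 (-1.48, adjusted p = 0.0475), beside 0.101% of all genes. The same held without aged NAM/PN injured replicate 4 (-1.29, adjusted p = 0.0338), beside 0.889%. Other genes moved with the same comparison. Summed macrophage markers were 2673, 3150 and 3815 CPM in vehicle and 5164, 4645, 5547 and 3846 CPM in NAM/PN mice, and summed mature fiber markers 203400, 213900 and 190600 CPM against 112900, 142700, 137600 and 179800 CPM (both as shares of total counts). Summed fibroblast markers were 6068, 6693 and 5772 CPM against 18720, 11570, 13290 and 13890 CPM, and summed regenerating fiber markers 3666, 4818 and 4216 CPM against 8337, 5985, 6321 and 5300 CPM. None of these 4 pairs of ranges overlapped, while those of the endothelial, slow fiber, adipocyte, erythrocyte and liver markers did. The share of all genes without overlap between these 3 and 4 libraries was not computed. edgeR called 0 genes of the lists, and the part of these cells in the changes of Cox6a2, Cox7a1 and Cox8b was not tested. The log2 ratio of Cox6a2 to Cox6a1 was lower by 1.28 (SE 0.52) in NAM/PN mice without overlap, but its exact permutation p of 0.0571 was the smallest that 3 and 4 libraries allow (adjusted p = 0.114). The groups overlapped for the ratios of Cox7a1 to Cox7a2 (-0.54, SE 0.365) and Cox8b to Cox8a (-0.76, SE 0.48). Both had an adjusted p of 0.361 by exact permutation.

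**Figure D5:**
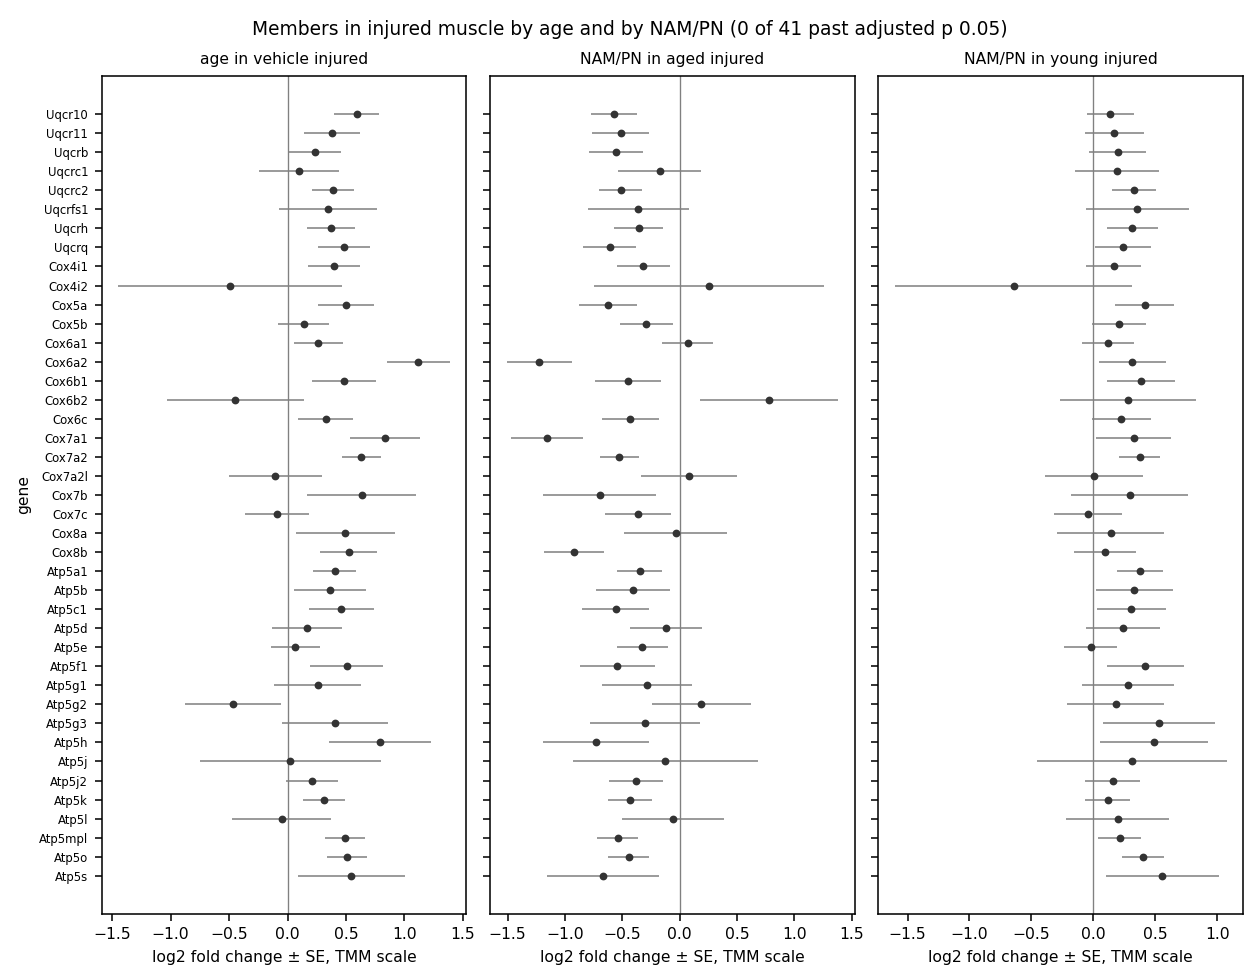
Log2 fold change (x axis, TMM scale, points with bars of 1 SE) of the 41 tested genes (rows) in injured muscle, for age in vehicle mice and for NAM/PN in aged and in young mice. Cox6a2 lies at 1.12 in the first panel and at -1.22 in the second, and both panels use the same 3 aged vehicle injured libraries.

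In young injured muscle 38 of 41 members had positive changes with a median of 0.24, edgeR called 0 of 41 and 0% of all genes, and 3 members had an unadjusted p under 0.05 beside 2.75% of all genes. The smallest p-values were those of Atp5o (0.40, SE 0.17), Cox7a2 (0.38, SE 0.17) and Atp5a1 (0.38, SE 0.19), all with an adjusted p of 1.00 by edgeR. In young contralateral muscle 36 of 41 were negative (median -0.24), edgeR called 0 members and 0% of all genes, 10 members and 4.87% of all genes had an unadjusted p under 0.05, and the smallest p-values were those of Uqcr10 (-0.45, SE 0.16), Uqcrh (-0.48, SE 0.17) and Atp5e (-0.44, SE 0.18), with adjusted p = 0.792, 0.817 and 0.995. In aged contralateral muscle 27 were positive (median 0.07), edgeR called 0 of 41, with 0 at an unadjusted p under 0.05, beside 0.00793% of all genes, and Uqcrc2 (0.20, SE 0.14), Atp5g3 (0.38, SE 0.36) and Cox5a (0.19, SE 0.19) had the smallest p-values, all with an adjusted p of 1.00. The log2 ratio of Cox8b to Cox8a was 0.81 lower (SE 0.22) in young NAM/PN than vehicle contralateral muscle, with an exact permutation p of 0.0130 and an adjusted p of 0.0557. In the same comparison the ratio of Cox6a2 to Cox6a1 differed by -0.09 (SE 0.22) and that of Cox7a1 to Cox7a2 by -0.27 (SE 0.20). Their adjusted p was 0.893 and 0.351 by exact permutation. In these groups summed slow fiber markers were 67.47 to 4792 CPM and 355.8 to 6203 CPM, in that order (as shares of total counts). The part of slow fibers in the members' values was not tested.

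The differences between these effects were tested as interactions, which share libraries with the comparisons above. edgeR called 0 of 41 members and 0% of all genes in each of the 3. For age and injury in vehicle mice 36 were positive (median 0.55), 14 with an unadjusted p under 0.05 beside 9.70% of all genes, with Cox7a2 (0.80, SE 0.21), Atp5o (0.81, SE 0.22) and Cox7a1 (1.33, SE 0.38) at the smallest p-values (each adjusted p = 0.272). For NAM/PN and injury in aged mice 37 were negative (median -0.48), 11 with an unadjusted p under 0.05 beside 7.64%, led by Cox6a2 (-1.29, SE 0.36, adjusted p = 0.320). For NAM/PN and age in injured muscle 37 were negative (median -0.71), 17 with an unadjusted p under 0.05 beside 8.77%, with Cox6a2 (-1.54, SE 0.39, adjusted p = 0.199) and Cox7a2 (-0.90, SE 0.24, adjusted p = 0.199) first. Treated young and aged mice also had different agent codes, which cannot be told apart from age here. With total counts the medians of the members were 0.295, -0.15 and -0.31 beside -0.28, 0.345 and 0.39 for all genes. DESeq2 called 3, 1 and 6 members in the 3 interactions, beside 0.159%, 0.285% and 0.714% of all genes, and voom with quality weights called 0 in the first and 3 and 9 in the others, beside 1.45% and 5.42%. Compared between groups of mice, the change of the isoform ratios within mice gave 9 exact permutation tests, none with an adjusted p under 0.321.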

How the data were processed

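Gene expression was measured by QuantSeq 3′ mRNA sequencing of gastrocnemius muscle in 38 libraries, grouped by the age, treatment and leg in their titles. The authors aligned reads to GRCm38 with STAR, counted them per gene with HTSeq 2.16.2 and deposited 1 table of raw counts for 27554 genes. The annotation release and strand setting of the counting are not given in the sources used here, so overlapping genes are uncertain. Symbols and positions came from GENCODE M21, which held 27518 of the identifiers, and the 36 others held 0.00214% of counts. Molecular identifiers are not mentioned in the sources used here, so reads may repeat a molecule, and errors were taken from the spread between libraries.

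Tests used edgeR 4.0.16 in R 4.3.3 (filterByExpr, TMM, glmQLFit and glmQLFTest, 1 coefficient per group, 12610 genes, 13 contrasts of which 3 were interactions). Alternatives used DESeq2 1.42.0, limma 3.58.1 and other scalings, filters, blocks and left-out libraries. Scripts were tested on simulated data. Isoform ratios were log2 with 0.5 added to each count, and were tested by exact permutation over libraries, two-sided as 2 times the smaller tail. The definition by absolute differences was computed first, called 12 of 30 tests instead of 6, and was replaced after its results had been seen. Total-count scaling and leaving out libraries apart on a first component were also chosen after seeing the data. Of 77 library pairs within groups none held identical values, and none agreed within sampling noise (lowest chi-square per degree of freedom 5.98).

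The legs of 15 mice were paired by the mouse in the labels. Correlations of their deviations from the group means were -0.31 to 0.28, 5 of them over 0.1, and the consensus correlation was 0.0484.

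The members, lists and comparisons were chosen with earlier results of these data known. The genes chosen for description were the 6 isoform genes and Atp5g1, Atp5g2 and Atp5g3 in every comparison. Per contrast the 3 members with the smallest p in each direction among those called were added, or the 3 smallest where none was. The isoform and Atp5g genes are all given above for injury, while only some of the chosen genes are given for age, NAM/PN and the interactions. From each other list the 2 genes with the smallest p in injury of young vehicle mice were named, with Cyc1, Ndufa4 and the mitochondrially encoded subunits. Further members are named for their role. Protein sequences were not used here.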

Additional observations from a re-analysis of the deposited data

Results flagged for a closer look

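Of 90 group values examined, 3 libraries lay far from the others of their group, where chance at the 5% level gives 4.5. Cox7a2 was 297.8 CPM in young NAM/PN contralateral replicate 3, against 394.0 to 432.0 CPM in the other 4 libraries. Cox8a was 35.54 CPM in aged NAM/PN injured replicate 4, against 80.71 to 87.05 CPM in the other 3. Atp5g1 was 255.9 CPM in aged NAM/PN contralateral replicate 4, against 81.07 to 138.6 CPM in the other 5. Groups of 3 libraries were not examined.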

How the results depend on the processing

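Of 4058 values recomputed under alternatives, 3745 were kept. For fold changes and ratios this means the same direction and side of the threshold, so a value that stayed uncalled with the same sign counts as kept. For counts of members it means a count equal to the main one or within a set factor of it. Members called outside injury were 2, 4, 3, 1 and 6 with DESeq2 for age in injured, NAM/PN in aged injured, age by injury, NAM/PN by injury and NAM/PN by age, 3, 10, 3 and 9 with voom and quality weights (age by injury not called), and 3 and 3 for NAM/PN in aged injured and NAM/PN by age without 7 libraries. After injury, total-count scaling gave 4 higher and 8 lower, 8 and 3, 5 and 2, and 7 and 5, because it moved all genes up. With 1 description style 1 member was higher in young vehicle mice, the fit of only the groups compared gave 7 lower in aged vehicle mice, and the mouse as a fixed replicate block gave 1 higher and 9 lower in young NAM/PN mice. The cause was not tested.

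Isoform ratios with 1 description style in young vehicle mice were -2.8503, -1.1597 and -3.0514 and lost their calls with fewer libraries, while the ratios Cox7a1/Cox7a2 for age in injured (-0.1614) and Cox8b/Cox8a for age in contralateral muscle (0.1908) changed sign. In the replicate block within mice the changes were -4.2333 and -3.5997, -1.6391 and -1.4666, and -4.4397 and -3.4652 for aged NAM/PN and young vehicle mice, where the sign-flip test could not pass. With two-sided p by absolute differences, -3.34, -2.911, -1.203, -2.697, -3.362 and -0.8083 (the last for Cox8b/Cox8a and NAM/PN in young contralateral muscle) passed.

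Single named genes changed sign under alternatives as follows, and of these Cox7a2 after injury in young NAM/PN mice was called lower with TMM and higher with total counts. With no filter these were Atp5g2 -0.0014 for NAM/PN by age. With voom with quality weights these were Cox8a -0.1208 for age in vehicle contralateral, Cox8a 0.1172 for NAM/PN in aged injured, Cox8a -0.0011 for NAM/PN in young injured, Cox6a1 0.0497, Cox7a2 0.0131 and Atp5g2 -0.1561 for NAM/PN in aged contralateral, Atp5g2 0.2597 for NAM/PN by injury, Cox8a 0.1183 and Atp5g2 -0.1935 for NAM/PN by age. With replicate block by mouse, voom with duplicateCorrelation these were Cox8a -0.1426 for age in vehicle contralateral, Cox8b 0.0309 for NAM/PN in aged contralateral, Atp5g2 -0.0845 for NAM/PN by age. With replicate block by title number these were Atp5g3 -0.1627 for injury in young NAM/PN, Cox8a -0.1397 for age in vehicle contralateral, Cox8a 0.1221 for NAM/PN in aged injured, Atp5g3 0.0952 for NAM/PN in young contralateral, Cox6a1 0.0199, Cox8a 0.0119 and Atp5g2 -0.2576 for NAM/PN by age. With description style as a term these were Cox6a2 -0.0575, Cox8a -0.2067 and Atp5g1 0.0249 for age in vehicle contralateral, Atp5g2 -0.0777 for NAM/PN in young injured, Cox6a2 0.1157 and Atp5g3 0.1815 for NAM/PN in young contralateral. With 1 description style these were Cox6a1 -0.1339 and Cox8a -0.2365 for age in vehicle contralateral. With total-count scaling these were Atp5g2 0.2692 and Atp5g3 0.3682 for injury in young vehicle, Cox7a2 0.3594 and Atp5g2 0.5234 for injury in young NAM/PN, Cox7a2 0.4016 and Atp5g2 0.2355 for injury in aged vehicle, Cox7a2 0.1953, Atp5g2 0.5298 and Atp5g3 0.7019 for injury in aged NAM/PN, Cox8a 0.2858, Atp5g1 0.014 and Atp5g3 0.0277 for NAM/PN in aged injured, Cox8b -0.0106 for NAM/PN in young injured, Cox6a1 -0.0111 and Atp5g2 -0.0337 for age by injury, Cox8a 0.1622, Atp5g1 0.093 and Atp5g2 0.2942 for NAM/PN by injury, Cox6a1 0.3162 and Cox8a 0.2403 for NAM/PN by age. With 7 libraries left out these were Cox8a 0.183 for NAM/PN in aged injured, Cox8a -0.0305 for NAM/PN in young injured, Cox7a2 0.0647, Cox8b 0.0295 and Atp5g2 -0.6735 for NAM/PN in aged contralateral, Atp5g2 -0.2536 for age by injury, Atp5g2 0.8674 for NAM/PN by injury, Cox8a 0.2135 and Atp5g2 -0.146 for NAM/PN by age. With only the groups compared these were Cox8a 0.0063 for NAM/PN in aged injured. With replicate block by mouse, fixed term these were Atp5g3 0.1266 for injury in aged NAM/PN.

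Leaving out 1 library at a time gave the following ranges. For NAM/PN in aged contralateral the ranges were Atp5g1 -0.378 to 0.2589, Atp5g2 -0.0927 to 0.4595, Cox6a1 -0.1253 to 0.0744, Cox6a2 -0.0327 to 0.1688, Cox7a1 -0.0318 to 0.1572, Cox7a2 -0.0833 to 0.0686, Cox8b -0.1266 to 0.0981, the ratio Cox6a2/Cox6a1 -0.0332 to 0.1427, the ratio Cox8b/Cox8a -0.6293 to 0.2611. For NAM/PN in aged injured the ranges were Atp5g1 -0.4702 to 0.1324, Atp5g2 -0.0614 to 0.3584, Cox6a1 -0.0429 to 0.1315, Cox8a -0.1328 to 0.1912, members called 0 to 1. For NAM/PN in young contralateral the ranges were Atp5g3 -0.1808 to 0.0101, Cox6a1 -0.0935 to 0.0799, Cox6a2 -0.1559 to 0.0388, the ratio Cox6a2/Cox6a1 -0.2003 to 0.019, the ratio Cox8b/Cox8a -0.9251 to -0.7083. For NAM/PN in young injured the ranges were Cox6a1 -0.0132 to 0.2395, Cox6a2 -0.0589 to 0.5351, Cox8a -0.0427 to 0.3589, Cox8b -0.1909 to 0.3236, the ratio Cox6a2/Cox6a1 -0.2718 to 0.5392, the ratio Cox7a1/Cox7a2 -0.2074 to 0.1703, the ratio Cox8b/Cox8a -0.3581 to 0.2996. For age in vehicle contralateral the ranges were Atp5g1 -0.3862 to 0.1304, Cox6a1 -0.0922 to 0.1107, Cox8a -0.179 to 0.2062, the ratio Cox7a1/Cox7a2 -0.4649 to -0.2889, the ratio Cox8b/Cox8a -0.4358 to 0.212. For age in vehicle injured the ranges were Atp5g1 -0.1533 to 0.4496, the ratio Cox7a1/Cox7a2 -0.1129 to 0.439, the ratio Cox8b/Cox8a -0.4324 to 0.1668. For injury in aged NAM/PN the ranges were the ratio Cox6a2/Cox6a1 -4.4007 to -4.0038, the ratio Cox7a1/Cox7a2 -1.7456 to -1.4858, the ratio Cox8b/Cox8a -4.3356 to -3.4905. For injury in aged vehicle the ranges were members lower 8 to 20. For injury in young NAM/PN the ranges were Atp5g3 -0.1136 to 0.1306, members higher 1 to 2, members lower 10 to 18. For NAM/PN by age the ranges were Atp5g2 -0.24 to 0.1779, Cox6a1 -0.1702 to 0.0827, Cox8a -0.3928 to 0.0528. For NAM/PN by injury the ranges were Atp5g1 -0.5391 to 0.19, Atp5g2 -0.3033 to 0.2817, Cox6a1 -0.0038 to 0.1954. For age by injury the ranges were Atp5g1 -0.0833 to 0.6449. The lowest counts came without young NAM/PN injured replicate 1 (10 lower, 1 higher), young NAM/PN contralateral replicate 2 (1 higher) and aged vehicle injured replicate 2 (8 lower) or 3 (10 lower). In aged NAM/PN mice the ratios lost their calls because the smallest possible p rises with 1 library fewer. Atp5g2 had 5 to 32 and Cox6b2 0 to 27 counts per library.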

Other observations

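Among libraries of the same group, members varied together along a first component of the deviations of all genes from their group means, which held 29.4% of that variance. Over the 38 libraries, 14 of 41 members correlated with it above 0.5, among them Uqcrc1 (0.89), Cox7a2l (0.84), Atp5d (0.83) and Atp5g1 (0.77), and 13 below -0.5, among them Atp5j (-0.92), Atp5h (-0.91), Atp5g3 (-0.91), Cox7b (-0.91) and Cox8a (-0.88). These are descriptions across libraries that share the same fit. Scores passed 0.2 in absolute size in 7 libraries, a limit chosen after seeing the scores, with aged NAM/PN contralateral replicate 4 at 0.488, aged vehicle contralateral replicate 4 at 0.393 and replicate 5 at -0.363.

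The GC content of the last 300 bases of transcripts was also examined. Within a library its correlation with the deviations of 12596 genes was between -0.19 and 0.22, and the slopes per 10 percentage points of GC, on the log2 scale, of the 7 libraries were 0.118 and 0.061 in the first 2 named and -0.048 in the last, 0.138 in young vehicle injured replicate 4, 0.091 in aged NAM/PN injured replicate 4, and 0.048 and -0.030 in aged vehicle contralateral replicates 1 and 6, against -0.102 to 0.050 in the 31 libraries with smaller scores. The cause of the component was not tested. Without the 7 libraries, edgeR called Cox6a2 (-1.30, adjusted p = 0.0200), Cox7a2 (-0.67, adjusted p = 0.0124) and Uqcr10 (-0.74, adjusted p = 0.0255) for NAM/PN in aged injured muscle, beside 2.92% of all genes. Of the 7, only aged NAM/PN injured replicate 4 was in the groups of this comparison. Without that library alone, edgeR called only Cox6a2 among the members (-1.29, adjusted p = 0.0338), beside 0.889% of all genes. For NAM/PN by age in injured muscle, edgeR without the 7 libraries called 3 members, beside 1.84% of all genes.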
